A study of Mus musculus with 12 samples.

Results

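The transcripts of 8 islet hormones (*Ins1*, *Ins2*, *Iapp*, *Gcg*, *Sst*, *Ppy*, *Pyy* and *Ghrl*) were followed through RNA-seq of 12 pancreatic neuroendocrine tumors (PanNETs) of RIP1Tag2 mice. The genes were chosen by name, and all 8 were found among the 38924 genes counted. All tumors were labelled as islet tumor or insulinoma, were of the C57Bl6 strain and carried the RIP1Tag2 transgene, in which the rat insulin promoter drives the SV40 T antigens in beta cells, so the hormone-producing cell is also the cell of origin of the tumor. Control tumors (n = 4) came from mice given saline, sunitinib-treated tumors (n = 4) from mice given the VEGF and PDGF receptor inhibitor sunitinib, and R+S-treated tumors (n = 4) from mice given the mTOR inhibitor rapamycin together with sunitinib. Per the labels, treatment started at 15.5 weeks of age and ran for 4 days in each group. The labels carry a prefix that is shared by the 4 control tumors, by sunitinib-treated tumors 5, 6 and 8 and by R+S-treated tumors 5 and 7. Whether it stands for a mouse or a batch is not stated, no prefix occurs in more than 1 group, and prefix and treatment cannot be told apart. Nothing states that the tumors of a group came from separate animals, and p-values then measure only the spread between these tumors.

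Islet hormones are made as precursors, cut by prohormone convertases and stored in granules. Beta cells make insulin from both mouse insulin genes (*Ins1* and *Ins2*) and co-secrete amylin (*Iapp*). Alpha cells make glucagon (*Gcg*), delta cells somatostatin (*Sst*), PP cells pancreatic polypeptide (*Ppy*) and epsilon cells ghrelin (*Ghrl*), and peptide YY (*Pyy*) belongs to the pancreatic polypeptide family. *Ins1* is an intron-poor copy of *Ins2*. The homeodomain factor Pdx1, the bHLH factor Neurod1 and Mafa are known activators of the insulin genes.

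In GRCm38, *Ins1* lies on chromosome 19 (52264297 to 52265476, plus strand, 2 exon blocks) and *Ins2* on chromosome 7 (142678656 to 142743381, minus strand, 6 exon blocks, since some of its 9 annotated transcripts start far upstream). *Iapp* lies on chromosome 6 (142298423 to 142303961, plus strand, 3 exon blocks), inside *Slco1a5* of the opposite strand and without exon overlap. *Gcg* lies on chromosome 2 (62474530 to 62483650, minus strand, 7 exon blocks) and *Sst* on chromosome 16 (23889573 to 23890958, minus strand, 2 exon blocks). *Ppy* (102099930 to 102101319) and *Pyy* (102106676 to 102107832) are neighbors on the minus strand of chromosome 11, with 4 exon blocks each. *Ghrl* lies on chromosome 6 (113716119 to 113719880, minus strand, 5 exon blocks), and 172 of its exon bases overlap exons of other genes, *Gm26982* and *Gm44033* on the opposite strand. Of the 50-base words of the *Ins1* and *Ins2* transcripts, 7 occurred in both genes (0.691% and 0.465% of their words), so that the insulin genes can be counted apart over most of their length, and transcripts of *Iapp*, *Gcg*, *Sst*, *Ppy* and *Pyy* shared no such word with another gene.

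The 250 bases before the start site of 4 of these genes are shown, as the regulatory sequence next to hormone genes of beta cells (*Ins1*, *Iapp*), alpha cells (*Gcg*) and delta cells (*Sst*), whose transcripts varied in different tumors. Capitals mark TAAT (the core of homeodomain sites such as those of Pdx1) and CAGATG (an E-box form bound by Neurod1) on either strand, TGACGTCA (the cAMP response element) and, on the gene's strand, TATAAA (the TATA box). Each is given 5′ to 3′ on the strand of the gene, from RefSeq on GRCm38.p6, at chr19:52264047-52264296 (plus, *Ins1*), chr6:142298175-142298424 (plus, *Iapp*), chr2:62483654-62483903 (minus, *Gcg*) and chr16:23890845-23891094 (minus, *Sst*).
Ins1: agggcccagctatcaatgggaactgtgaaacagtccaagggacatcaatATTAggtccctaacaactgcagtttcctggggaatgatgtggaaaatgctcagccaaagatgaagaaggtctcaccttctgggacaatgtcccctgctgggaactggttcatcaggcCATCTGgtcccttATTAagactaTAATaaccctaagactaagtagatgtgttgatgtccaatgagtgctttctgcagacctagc
Iapp: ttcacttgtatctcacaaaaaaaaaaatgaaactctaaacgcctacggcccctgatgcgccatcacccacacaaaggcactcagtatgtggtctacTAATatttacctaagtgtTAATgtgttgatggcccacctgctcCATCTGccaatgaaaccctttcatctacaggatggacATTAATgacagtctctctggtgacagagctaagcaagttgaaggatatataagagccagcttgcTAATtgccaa
Gcg: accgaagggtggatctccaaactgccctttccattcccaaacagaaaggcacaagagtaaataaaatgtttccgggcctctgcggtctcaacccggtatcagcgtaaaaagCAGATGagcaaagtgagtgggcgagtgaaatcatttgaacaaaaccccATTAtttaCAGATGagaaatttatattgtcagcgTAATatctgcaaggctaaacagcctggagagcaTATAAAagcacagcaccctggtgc
Sst: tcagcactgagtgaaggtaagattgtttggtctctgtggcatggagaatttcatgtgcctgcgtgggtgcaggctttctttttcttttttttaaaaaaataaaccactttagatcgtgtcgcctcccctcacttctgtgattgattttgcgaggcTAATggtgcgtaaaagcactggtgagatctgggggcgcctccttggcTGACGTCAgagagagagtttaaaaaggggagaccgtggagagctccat
*Ins1* held 3 TAAT matches and 1 CAGATG match, and *Iapp* held 5 TAAT matches, of which a pair overlaps in ATTAAT, and 1 CAGATG match. *Gcg* held 2 of each and a TATAAA, and *Sst* held 1 TAAT and 1 TGACGTCA. Among 32851 promoters of this length, 54.9% held TAAT, 14.4% CAGATG, 1.55% TGACGTCA and 7.59% TATAAA, and 5.54% held as many TAAT matches as *Iapp*. A match is a run of letters and not a binding site.

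Gene counts summed to 31872342 to 44215054 per tumor, with a median of 38526164. The labelled tumor type was checked against beta cell markers. In 11 of the 12 tumors *Pdx1* was at 155 to 442 normalized CPM (gene reads scaled to a common library size), *Mafa* at 38.0 to 139.5 and *Slc2a2*, the glucose transporter of mouse beta cells, at 47.9 to 233 CPM. Sunitinib-treated tumor 6 stood apart, with *Pdx1* at 4.17, *Mafa* at 3.04 and *Slc2a2* at 2.04 CPM, and it was the lowest of the 12 tumors for 22.5% and the highest for 22.6% of the 16645 genes tested. Sunitinib-treated tumor 12 was the lowest for 20.9% and the highest for 21.3%, and the other 10 tumors were the lowest for 2.64% to 10.7%. Acinar transcripts also set control tumors apart from treated tumors: 32 acinar genes held 0.00504% to 0.0170% of gene reads in control tumors. They held 1.37% to 5.00% in sunitinib-treated and 0.377% to 1.93% in R+S-treated tumors, and these 2 ranges overlapped.

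The 8 hormones together held 3.53% to 5.68% of the gene reads of control tumors, 2.81% to 7.21% of those of sunitinib-treated tumors 5, 8 and 12, and 4.02% to 6.07% of those of R+S-treated tumors. In sunitinib-treated tumor 6 they held 0.170%. The share of that tumor on acinar genes (5.00%) was the highest of the 12, and the other 3 sunitinib-treated tumors had 1.37% to 4.11%. The part of acinar transcripts in the hormone values was not tested. In bulk tumors, fewer cells of a type and less RNA per cell cannot be told apart.

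**Figure D1:**
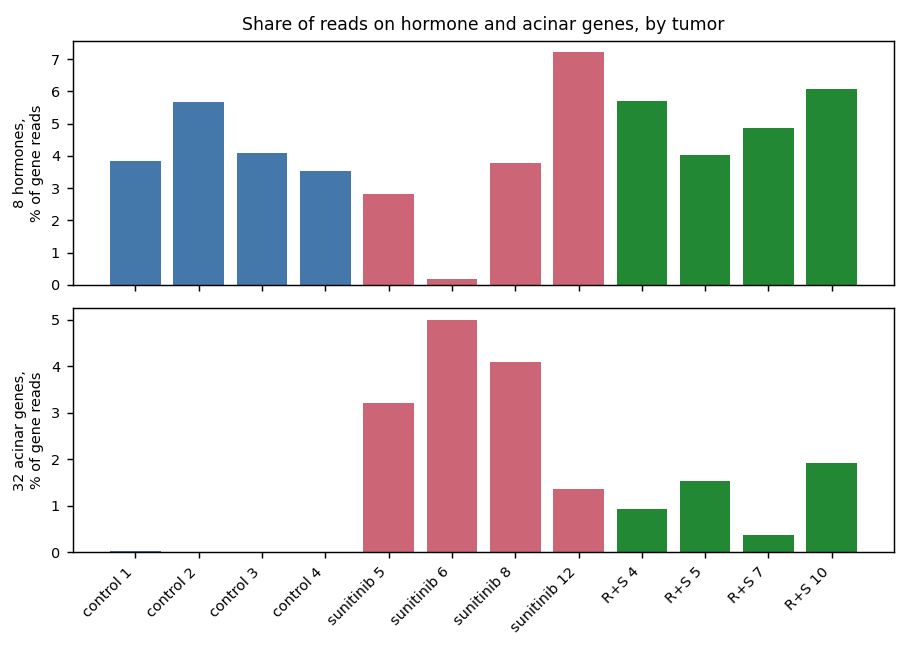
Share of gene reads (percent, y axes, each starting at 0) on the 8 islet hormones (top) and on 32 acinar genes (bottom) in each tumor (x axis), with control tumors in blue, sunitinib-treated tumors in red and R+S-treated tumors in green. Sunitinib-treated tumor 6 has 0.170% of its reads on hormones, and the control tumors have at most 0.0170% on acinar genes.

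Scaled to exon length, *Ins2* was the most abundant hormone transcript, at 18151 ± 5450.0 normalized CPM per kilobase in control tumors (SD, n = 4), 13772 ± 14038 in sunitinib-treated and 20778 ± 3606 in R+S-treated tumors. *Iapp*, at 10074 ± 1779 CPM per kilobase in control tumors, and *Ins1*, at 7981 ± 3093, came next, and their ranges overlapped. By group medians *Iapp* was above *Ins1* in control tumors (10077 against 8741 CPM per kilobase) and below it in sunitinib-treated (9189 against 9738) and R+S-treated tumors (10111 against 15239). *Gcg* stood next in each group, at 102 ± 47.9 CPM per kilobase in control tumors. *Ppy* (7.89 ± 5.60), *Sst* (9.11 ± 12.7) and *Pyy* (5.55 ± 4.60) were within their spread of each other in control tumors, and *Ghrl* was at 0.202 ± 0.123 CPM per kilobase. The 5 hormones that beta cells do not make (*Gcg*, *Sst*, *Ppy*, *Pyy* and *Ghrl*) accounted for 0.154% to 0.733% of hormone reads in control tumors, 0.335% to 0.674% in sunitinib-treated tumors 5, 8 and 12, 5.05% in sunitinib-treated tumor 6 and 0.0922% to 0.149% in R+S-treated tumors. Every R+S-treated tumor thus had a lower share than every other tumor, with a narrow gap to the lowest control tumor (0.149% against 0.154%). The share also depends on the insulin and *Iapp* reads in its divisor, and their part was not tested. *Gcg* gave most of this share except in R+S-treated tumor 5, where *Ppy* had 1603 reads and *Gcg* 462.

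**Figure D2:**
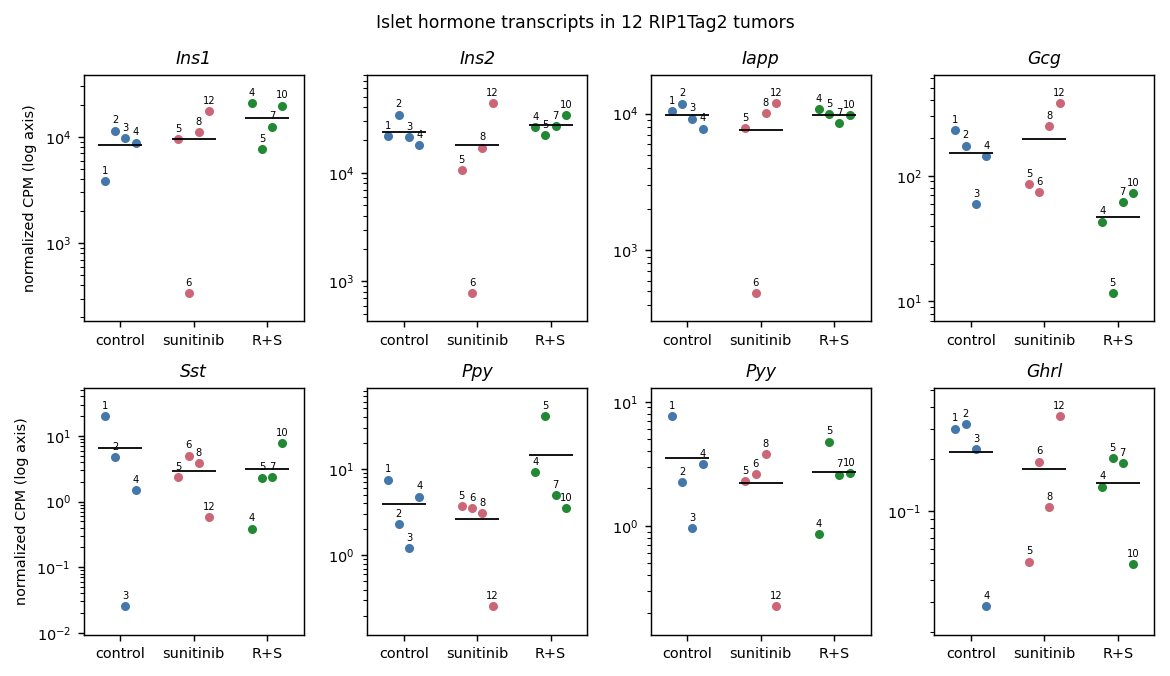
Normalized CPM (y axis, log scale) of the 8 islet hormones in control, sunitinib-treated and R+S-treated tumors (x axis). Each point is 1 tumor with its replicate number, and black lines are group means (n = 4). Sunitinib-treated tumor 6 is the lowest of 12 for *Ins1*, *Ins2* and *Iapp*, and the 4 R+S-treated tumors lie between 11.7 and 73.0 CPM for *Gcg*.

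Whether treatment changed hormone transcripts was asked in 3 comparisons by the quasi-likelihood test of edgeR, with p-values adjusted over all 16645 genes. *Ghrl* did not pass the filter on low counts, and 7 hormones were tested. Of these, 0 were called in sunitinib-treated against control tumors, where 4.48% of all genes tested were called (2.55% lower), 0 in R+S-treated against control tumors (4.16% of all genes, 2.61% lower) and 0 in R+S-treated against sunitinib-treated tumors (7.21% of all genes, 4.58% lower). At an unadjusted p under 0.05 the counts were 0, 1 (*Gcg*) and 2 (*Gcg* and *Ppy*) of 7, against 19.5%, 20.1% and 30.4% of all genes. DESeq2 called 0 hormones in the first comparison (9.06% of all genes), *Gcg* in the second (10.4%) and *Gcg* and *Ppy* in the third (19.5%). Reads of treated tumors that share a prefix were also summed, with the 4 control tumors kept apart although they share 1 prefix. This gave 0, 0 and 1 hormones called beside 4.39%, 3.92% and 6.09% of all genes. Without sunitinib-treated tumor 5 the counts were 0, 0 and 1 beside 5.34%, 4.74% and 16.9%. Without sunitinib-treated tumor 6 they were 0, 0 and 1 beside 5.3%, 9.67% and 10.1%, and the hormone called was *Gcg* each time. The median log2 fold change of the 7 hormones was -0.40, -0.01 and 0.36 in the 3 comparisons, beside 0.0311, 0.0094 and -0.025 over all genes tested. The comparisons share groups and are not independent of each other.

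**Figure D3:**
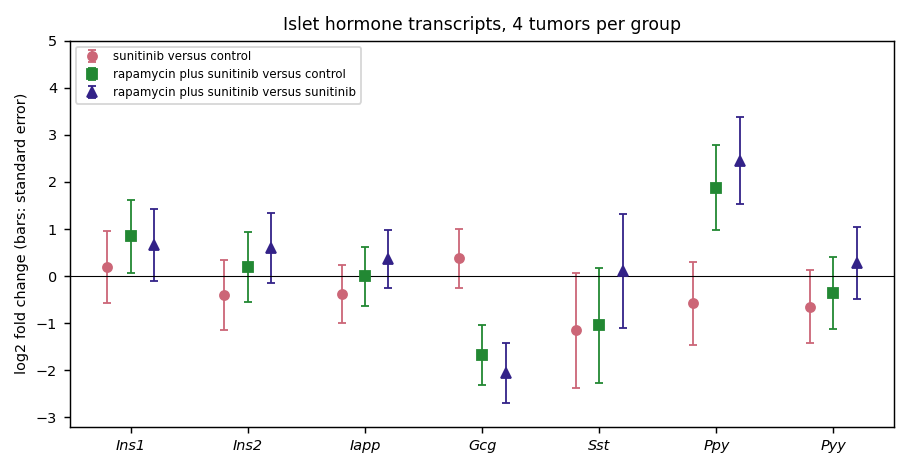
Log2 fold change (y axis) of the 7 hormones tested (x axis) in the 3 comparisons by edgeR, with 4 tumors per group and bars for the standard error. *Gcg* lies at -1.68 and -2.06 and *Ppy* at 1.88 and 2.46 in the comparisons of R+S-treated tumors with control and with sunitinib-treated tumors.

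*Ins1* was at 3835, 11503, 9709 and 8856 CPM in control tumors 1 to 4, at 9553, 338, 11129.5 and 17604 in sunitinib-treated tumors 5, 6, 8 and 12, and at 20927, 7729, 12547 and 19821 in R+S-treated tumors 4, 5, 7 and 10. Apart from tumor 6 the groups overlapped, and 3 of the 4 R+S-treated tumors were above the highest control tumor. The log2 fold change of *Ins1* was 0.19 ± 0.77 (SE) for sunitinib against control, 0.85 ± 0.77 for R+S against control and 0.66 ± 0.77 for R+S against sunitinib, with edgeR adjusted p of 0.914, 0.575 and 0.581. *Ins2* was at 21837, 34216, 21297 and 17904 CPM in control tumors, at 10612, 784, 17074 and 43805 in sunitinib-treated tumors, and at 26469.6, 22216, 26710.2 and 33646 in R+S-treated tumors. The 4 R+S-treated tumors all lay inside the range of the sunitinib-treated tumors, which held both the lowest and the highest *Ins2* of the series. Its log2 fold changes were -0.40 ± 0.75, 0.20 ± 0.75 and 0.59 ± 0.75 (edgeR adjusted p of 0.796, 0.916 and 0.612).

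*Iapp*, stored with insulin in the same granules, was at 10422, 11842, 9208 and 7774 CPM in control tumors, at 7814, 487, 10087 and 11965 in sunitinib-treated tumors, and at 10802, 9875, 8534 and 9821 in R+S-treated tumors. Without tumor 6 it was the steadiest of the 8 hormones: its highest tumor was 1.54-fold above its lowest over the other 11, against 4.13-fold for *Ins2* and 5.46-fold for *Ins1*. The log2 fold changes of *Iapp* were -0.37 ± 0.62, -0.01 ± 0.62 and 0.36 ± 0.62, with edgeR adjusted p of 0.768, 0.996 and 0.714. Without sunitinib-treated tumor 6 the difference between sunitinib-treated and control tumors was 0.02 ± 0.19 for *Iapp* and 0.0015 ± 0.41 for *Ins2*. The model weighs tumors by their reads and not by their logs, and for *Ins1* in sunitinib-treated against control tumors its fold change (0.19) and the difference in mean log2 CPM (-0.65) had opposite signs.

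The insulin genes were also compared within each tumor, where no scaling between tumors enters. The ratio of *Ins1* to *Ins2* reads was 0.176, 0.336, 0.456 and 0.495 in control tumors, 0.900, 0.432, 0.652 and 0.402 in sunitinib-treated tumors, and 0.791, 0.348, 0.470 and 0.589 in R+S-treated tumors. *Ins2* gave more reads than *Ins1* in each of the 12 tumors, and the groups overlapped. The mean log2 ratio differed by 0.73 between sunitinib-treated and control tumors, by 0.63 between R+S-treated and control tumors and by -0.11 between R+S-treated and sunitinib-treated tumors (two-sided exact permutation p = 0.171, 0.20 and 0.771). Tumor 6, at 0.432, was inside the range of the other tumors, so both insulin genes were low in it together.

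The ratio of *Iapp* to *Ins2* reads was 0.477, 0.346, 0.432 and 0.434 in control tumors, 0.736, 0.621, 0.591 and 0.273 in sunitinib-treated tumors, and 0.408, 0.444, 0.319 and 0.292 in R+S-treated tumors. Sunitinib-treated tumors 5, 6 and 8 were above all control and all R+S-treated tumors, and tumor 12 was below all of them. The mean log2 ratio differed by 0.31 (two-sided exact permutation p = 0.40), -0.22 (p = 0.229) and -0.53 (p = 0.20) in the 3 comparisons. Without tumor 12, the tumor on the other side, the differences of sunitinib from control and of R+S from sunitinib were 0.62 and -0.84, given without a test. The tumors above the others are the sunitinib-treated tumors that share a label prefix. With the reads of treated tumors that share a prefix summed, and control tumors kept apart, the differences were 0.0026 and -0.24.

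**Figure D4:**
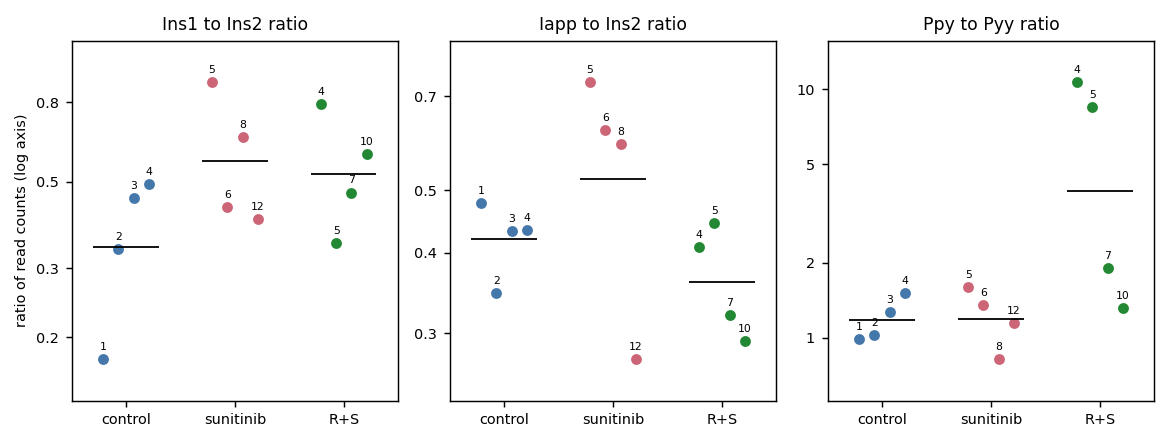
Ratio of read counts within each tumor (y axes, log scale) for *Ins1* to *Ins2*, *Iapp* to *Ins2* and *Ppy* to *Pyy* in control, sunitinib-treated and R+S-treated tumors (x axes). Points are tumors with their replicate numbers and lines are geometric means (n = 4). *Iapp* to *Ins2* is highest in sunitinib-treated tumors 5, 6 and 8 (0.591 to 0.736), and *Ppy* to *Pyy* is highest in R+S-treated tumors 4 and 5 (10.7 and 8.48).

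*Gcg*, the alpha cell hormone that raises blood glucose, was at 231, 173, 59.5 and 143 CPM in control tumors 1 to 4, at 85.7, 74.1, 249 and 379 in sunitinib-treated tumors 5, 6, 8 and 12, and at 43.1, 11.7, 61.3 and 73.0 in R+S-treated tumors 4, 5, 7 and 10. These values rest on 462 to 11802 reads per tumor. The highest R+S-treated tumor (73.0) was just below the lowest sunitinib-treated tumor (74.1) and above control tumor 3 (59.5), so that the R+S-treated group did not overlap the sunitinib-treated group and did overlap the control group. *Gcg* was the only hormone of the 7 tested whose groups did not overlap in any comparison, and 18.6% of all genes tested did not overlap between R+S-treated and sunitinib-treated tumors (9.73% with R+S lower). In the other comparisons 0 hormones did not overlap, beside 10.9% of all genes for sunitinib against control (5.76% lower) and 23.5% for R+S against control (11.9% lower). The log2 fold change of *Gcg* was -2.06 ± 0.65 for R+S against sunitinib (edgeR adjusted p = 0.0689), -1.68 ± 0.64 for R+S against control (adjusted p = 0.166) and 0.37 ± 0.62 for sunitinib against control (adjusted p = 0.767). The two-sided exact permutation p was 0.0286, the smallest that 4 against 4 allow, for R+S against sunitinib, and 0.0857 for R+S against control, in a family of 24 such tests that were not adjusted.

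The side of the threshold on which *Gcg* fell depended on the tool and the tumors. DESeq2 gave a log2 fold change of -2.07 with an adjusted p of 0.00727 for R+S against sunitinib and -1.69 with 0.0480 for R+S against control. By edgeR, R+S against sunitinib passed without sunitinib-treated tumor 6 (-2.33, adjusted p = 0.0422), without tumor 5 (-2.33, adjusted p = 0.0392) and with tumors of a prefix summed (-2.37, adjusted p = 0.0486), and without tumor 12 it was -1.53 (adjusted p = 0.155). The fold was negative in every alternative run, between -2.37 and -1.53 against sunitinib and between -1.97 and -1.36 against control, with adjusted p from 0.00727 to 0.155 and from 0.0480 to 0.344.

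Other alpha cell transcripts were read beside *Gcg*. Of 8 alpha cell markers tested, 0 were called in sunitinib-treated against control tumors (*Ttr*, which codes transthyretin, had the smallest p, with a log2 fold change of 4.24 and an edgeR adjusted p of 0.115), and 1 fell in each comparison of R+S-treated tumors, beside 2.61% of all genes that fell against control and 4.58% that fell against sunitinib. It was *Slc38a5*, an amino acid transporter of alpha cells, at 1090.4 to 1289.6 CPM in control tumors, 383 to 2081 in sunitinib-treated and 134 to 379.6 in R+S-treated tumors, with a log2 fold change of -2.27 ± 0.47 against control and -2.26 ± 0.47 against sunitinib (edgeR adjusted p = 0.0198 and 0.0277). Without sunitinib-treated tumor 6, *Gcg* and *Slc38a5* were the 2 alpha cell markers called for R+S against sunitinib, beside 10.1% of all genes. The 9 alpha cell markers other than *Gcg* summed to 1787 to 2349 CPM in control tumors, 1884 to 8176 in sunitinib-treated and 829 to 1159 in R+S-treated tumors. Most of the sum in control tumors was *Slc38a5*, and most of the highest sum was *Ttr* in sunitinib-treated tumor 6. The sum therefore does not show a fall across the list. For R+S against control the median log2 fold change of the 8 markers tested was -0.17, beside 0.0094 over all genes. For R+S against sunitinib it was -2.35 with all tumors, beside -0.025 over all genes, and -0.19 without tumor 6. Endothelial transcripts also moved with treatment. Of 12 endothelial markers, 11 fell in R+S-treated against control tumors, beside 2.61% of all genes. In R+S-treated against sunitinib-treated tumors 8 endothelial markers rose, beside 2.63% of all genes. The part of endothelial transcripts in the *Gcg* values was not tested.

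*Ppy*, the satiety-related product of PP cells, was at 7.51, 2.30, 1.22 and 4.76 CPM in control tumors, at 3.67, 3.54, 3.09 and 0.257 in sunitinib-treated tumors, and at 9.18, 40.5, 4.92 and 3.49 in R+S-treated tumors. R+S-treated tumor 5 had 1603 reads and sunitinib-treated tumor 12 had 8 reads (95% exact Poisson interval 3.45 to 15.8, counting error only), and the other 10 tumors had 48 to 351. The log2 fold change of *Ppy* was -0.58 ± 0.88 for sunitinib against control (edgeR adjusted p = 0.750), 1.88 ± 0.90 for R+S against control (0.269) and 2.46 ± 0.92 for R+S against sunitinib (0.105). DESeq2 called the last of these (2.46, adjusted p = 0.0218), the exact permutation p was 0.0857, and without R+S-treated tumor 5 the log2 fold change was 0.57 against control and 1.15 against sunitinib (edgeR adjusted p = 0.810 and 0.378).

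*Pyy*, the neighbor and relative of *Ppy*, was at 7.64, 2.25, 0.964 and 3.16 CPM in control tumors, at 2.30, 2.63, 3.77 and 0.225 in sunitinib-treated tumors, and at 0.860, 4.77, 2.58 and 2.65 in R+S-treated tumors. The groups overlapped, and the log2 fold changes were -0.65 ± 0.77, -0.37 ± 0.77 and 0.28 ± 0.77 (edgeR adjusted p of 0.674, 0.831 and 0.828). The ratio of *Ppy* to *Pyy* reads, a pair chosen after their values were seen and therefore not tested, was 0.983 to 1.51 in control tumors, 0.818 to 1.60 in sunitinib-treated tumors, and 10.7, 8.48, 1.91 and 1.32 in R+S-treated tumors 4, 5, 7 and 10. Both genes thus had similar read counts in the 8 tumors not given rapamycin, and *Ppy* exceeded *Pyy* most in R+S-treated tumors 4 and 5. Of 7 PP cell markers tested, 0 were called in each comparison, beside 4.48%, 4.16% and 7.21% of all genes.

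*Sst*, the delta cell hormone that restrains insulin and glucagon release, had the widest range of the 8 hormones in control and R+S-treated tumors (786-fold and 19.8-fold from lowest to highest) and not in sunitinib-treated tumors (8.71-fold). It had 932, 182, 1 and 53 reads in control tumors, 93, 182, 145 and 18 in sunitinib-treated tumors, and 14, 92, 86 and 311 in R+S-treated tumors. In normalized CPM this was 19.9, 4.81, 0.0254 and 1.49, then 2.37, 5.03, 3.83 and 0.578, then 0.388, 2.32, 2.34 and 7.70. The 1 read of control tumor 3 has a 95% exact Poisson interval of 0.0253 to 5.57 reads. The log2 fold changes were -1.15 ± 1.23, -1.04 ± 1.22 and 0.11 ± 1.22 (edgeR adjusted p of 0.637, 0.675 and 0.959), and the difference in mean log2 CPM had the opposite sign in all 3 comparisons (0.34, 0.18 and -0.16). Control tumor 1 set the sign, since without it the first 2 fold changes were 0.48 and 0.60. Of 7 delta cell markers tested, 1 was called in any comparison: *Casr*, the calcium-sensing receptor, rose in R+S-treated against sunitinib-treated tumors (log2 fold change 2.34 ± 0.52, edgeR adjusted p = 0.0309). In that comparison 7.21% of all genes were called (2.63% higher), with 4.48% and 4.16% called in the comparisons with control. The smallest p in both comparisons with control was that of *Lepr*, the leptin receptor gene (-1.80 and -1.59, adjusted p = 0.0578 and 0.0822). *Lepr* was called in both without sunitinib-treated tumor 6, beside 5.3% and 9.67% of all genes.

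*Ghrl* had 1 to 14 reads per tumor, or 0.0282 to 0.353 CPM, in groups that overlapped throughout (two-sided exact permutation p = 0.771, 0.543 and 0.857). Over the 172 of its 1079 exon bases that overlap opposite-strand exons, reads cannot be assigned to a strand, since the setting of the counting is not stated. *Mboat4*, which codes the enzyme that acylates ghrelin, was at 0 to 0.0832 CPM. Of 3 epsilon cell markers tested, *Arg1*, which codes arginase and is also made in other cells, fell in R+S-treated against sunitinib-treated tumors (log2 fold change -4.40 ± 0.81, edgeR adjusted p = 0.0252) and had the smallest p in the other comparisons (adjusted p = 0.104 and 0.156). *Arg1* had 2 to 10 reads in R+S-treated and 19 to 238 in sunitinib-treated tumors, with the most in tumor 6. Between R+S-treated and sunitinib-treated tumors 7.21% of all genes were called (4.58% lower).

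Sunitinib-treated tumor 6 was examined on its own, as a single tumor without a test. Relative to the median of the other 3 sunitinib-treated tumors, *Ins1* was 32.9-fold, *Ins2* 21.8-fold and *Iapp* 20.7-fold lower, on 12248, 28362 and 17614 reads, whereas *Gcg*, *Sst*, *Ppy*, *Pyy* and *Ghrl* lay inside the range of the other 11 tumors. All 15 beta cell markers tested were lowest in this tumor, where 22.5% of all genes were. *Pdx1* was 65.2-fold, *G6pc2* (the islet glucose-6-phosphatase) 56.7-fold, *Slc2a2* 48.4-fold, *Mafa* 40.6-fold and *Nkx6-1* 9.61-fold below the median of the other 3. *Neurod1* (165 CPM against 193 to 406 in the other 11 tumors), *Nkx2-2* (126 against 148 to 270.2) and *Isl1* (329.7 against 332 to 662) were lowest by a small margin, and *Rfx6* and *Myt1*, general endocrine regulators, were inside the range. Of 23 prohormone processing and storage genes tested, 10 were below all other tumors, 5 above them and 8 inside their range: *Chga*, *Chgb*, *Pcsk2* and *Cpe* were inside the range (*Chga* at 2849 CPM against 2581 to 4722), *Scg3* (82.7 against 853 to 1699), *Scg2* (1491 against 2667 to 8155), *Ero1lb* (107 against 649.9 to 1682), *Slc30a8* (180.2 against 595 to 1383) and *Ptprn2* (550.9 against 611 to 1544) were among those below it, and *Vgf* (366 against 3.64 to 119), *Pam* (1281 against 232 to 659) and *Scg5* (909 against 232 to 842) were above it.

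Other islet and gut genes were high in tumor 6. Of 8 alpha cell markers, 4 were the highest of 12 there: *Irx1* (169 CPM against 0.0507 to 10.5), *Irx2* (339.7 against 2.79 to 29.6), *Ttr* (6357 against 27.7 to 257) and *Gc* (688 against 0.457 to 91.8). *Pou3f4*, another alpha cell factor, was at 34.8 CPM against at most 0.0510, while *Gcg* itself was at 74.1. Among other peptide genes, some named after their values were seen, *Cartpt* (cocaine- and amphetamine-regulated transcript) had 190764 reads, or 5272 CPM against 0.985 to 44.2. *Sct* (secretin) was at 443 CPM against 1.94 to 7.55, *Gal* (galanin) at 137 against 0.203 to 1.64, and *Npy* (neuropeptide Y) at 2.79 against 54.1 to 1995. Receptors differed as well: *Calcr*, which with a RAMP protein forms the amylin receptor, was at 209.6 CPM against at most 1.56, and *Ramp1* was at 58.7 against 4.11 to 12.6, while *Glp1r* was at 2.24 against 89.0 to 255 and *Sstr5* at 0.746 against 16.1 to 42.5.

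**Figure D5:**
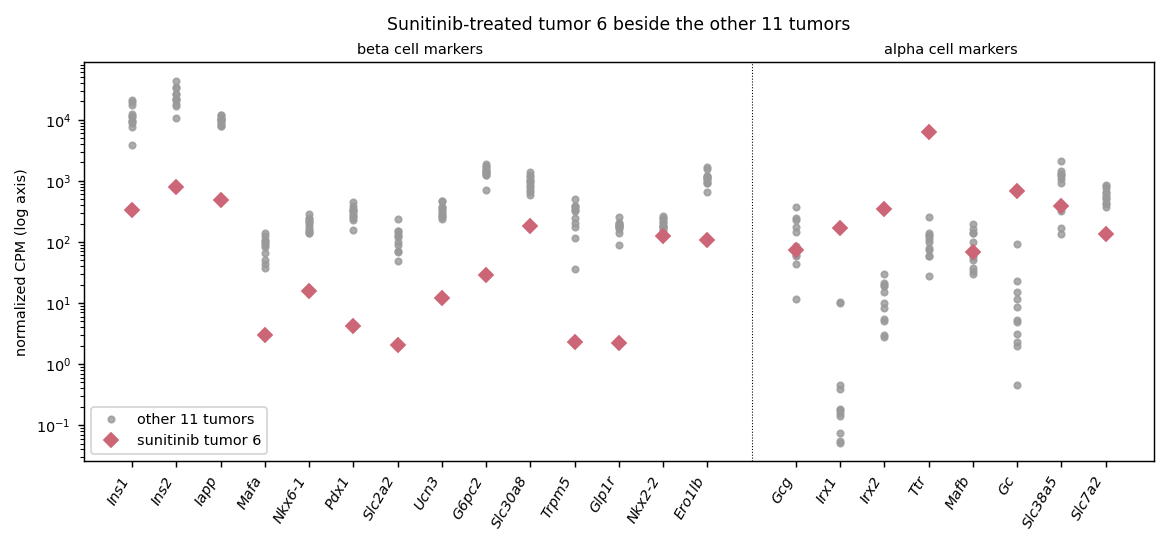
Normalized CPM (y axis, log scale) of 14 of the 15 beta cell markers tested and 8 alpha cell markers (x axis) in sunitinib-treated tumor 6 (red diamonds) and the other 11 tumors (gray points). The diamond is below all gray points for each of the 14 beta cell markers and above them for *Irx1*, *Irx2*, *Ttr* and *Gc*.

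Transcription factors of islet hormone genes were read next, from a list of 28 of which 24 were tested. In sunitinib-treated and in R+S-treated against control tumors 0 were called (*Pax4* and *Rfx6* had the smallest p, with edgeR adjusted p of 0.112 and 0.0908), beside 4.48% and 4.16% of all genes. In R+S-treated against sunitinib-treated tumors 3 rose and 0 fell, beside 7.21% of all genes (2.63% higher). *Rfx6*, required for islet endocrine development, was at 145 to 247 CPM in sunitinib-treated and 289 to 509 in R+S-treated tumors (log2 fold change 1.03 ± 0.20, adjusted p = 0.0261). *Glis3*, an activator of insulin transcription, was at 10.2 to 52.2 and 81.5 to 137 CPM (1.79 ± 0.40, adjusted p = 0.0313), and *St18* at 57.3 to 132 and 142 to 192 CPM (0.89 ± 0.24, adjusted p = 0.0458). The median log2 fold change of the list was 0.41 there, beside -0.025 over all genes tested. Without tumor 6, *Rfx6*, *Glis3*, *Hnf4a* and *Mlxipl* were called in that comparison (10.1% of all genes), and *Nkx2-2*, *Glis3* and *Mlxipl* rose against control (9.67%). *Pdx1* and *Mafa*, both lowest in tumor 6, were called in 0 of the 3 comparisons, with edgeR adjusted p of 0.678 to 0.844 and 0.697 to 0.979.

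Of 23 genes for prohormone processing and storage, 1 was called in sunitinib-treated against control tumors and 1 in R+S-treated against sunitinib-treated tumors, both *Vgf*, which codes a granule protein, beside 4.48% and 7.21% of all genes. It was at 5.55 to 16.5 CPM in control tumors, 366 and 119 in sunitinib-treated tumors 6 and 12, at most 27.3 in tumors 5 and 8, and 3.64 to 6.57 in R+S-treated tumors (log2 fold changes 3.47 ± 0.84 and -4.64 ± 0.89, edgeR adjusted p = 0.0379 and 0.0257). Without tumor 6 it was not called against control and was called against R+S (-3.34, adjusted p = 0.0237). In R+S-treated against control tumors 0 were called, with the smallest p for *Chga* (adjusted p = 0.232), and without tumor 6 *Pam*, which amidates peptide hormones, rose (0.99, adjusted p = 0.0116). The prohormone convertases *Pcsk1* and *Pcsk2* were called in 0 of the 3 comparisons.

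Of 13 receptors of islet hormones tested, 1, 0 and 2 were called in the 3 comparisons, beside 4.48%, 4.16% and 7.21% of all genes. *Sstr2*, a somatostatin receptor, rose in sunitinib-treated against control tumors (0.449 to 7.60 against 0.141 to 0.257 CPM, log2 fold change 3.70 ± 0.79, edgeR adjusted p = 0.0204) and fell in R+S-treated against sunitinib-treated tumors (-2.98 ± 0.76, adjusted p = 0.0408). Its highest value was that of tumor 6, and without that tumor it was called only against control (2.34, adjusted p = 0.0159). *Sstr2* had 5 to 12 reads in control, 14 to 275 in sunitinib-treated and 9 to 16 in R+S-treated tumors. *Igf1r* rose in R+S-treated against sunitinib-treated tumors (19.1 to 34.6 against 8.90 to 16.5 CPM, 0.91 ± 0.23, adjusted p = 0.0380). In R+S-treated against control tumors 0 receptors were called, with the smallest p for *Ramp3* (-2.81 ± 0.73, adjusted p = 0.0524), at 5.19 to 6.82 CPM in control and 0.707 to 1.16 in R+S-treated tumors. Without tumor 6, *Gipr* rose and *Ramp2* and *Ramp3* fell in that comparison, beside 9.67% of all genes called. In the same fit *Ramp3* also fell in sunitinib-treated against control tumors (-1.98, edgeR adjusted p = 0.0160, beside 5.3% of all genes). *Gipr* also rose there in R+S-treated against sunitinib-treated tumors (0.99, edgeR adjusted p = 0.0316, beside 10.1%). The insulin receptor gene *Insr* and the glucagon receptor gene *Gcgr* were not called.

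Of 13 other peptide hormones tested, *Cartpt* rose in sunitinib-treated against control tumors (log2 fold change 8.50 ± 2.18, edgeR adjusted p = 0.0493, beside 1.93% of all genes that rose), a call that rests on tumor 6 and was lost without it. In R+S-treated against sunitinib-treated tumors 3 fell and 0 rose, beside 4.58% of all genes that fell: *Cartpt* (-8.53 ± 2.18, adjusted p = 0.0409, also lost without tumor 6), *Dbi*, which codes the acyl-CoA-binding precursor of a neuropeptide (18.5 to 23.9 against 29.7 to 55.0 CPM, -0.95 ± 0.20, adjusted p = 0.0277), and *Gast* (gastrin), at 0.101 to 0.435 against 0.408 to 1.89 CPM (-2.05 ± 0.55, adjusted p = 0.0470). *Gast* had 4 to 16 reads in R+S-treated and 16 to 59 in sunitinib-treated tumors. In R+S-treated against control tumors 0 of the 13 peptides were called, with the smallest p for *Penk* (-3.33 ± 0.85, edgeR adjusted p = 0.0502). *Npy* was at 989 to 1389 CPM in control tumors, 54.1 to 321 in R+S-treated tumors and 2.79 to 1995 in sunitinib-treated tumors, and without tumor 6 it fell in R+S-treated tumors against both groups (-2.50 against control and -2.54 against sunitinib, adjusted p = 0.0106 and 0.0244). *Penk* against control, and *Ucn3* against sunitinib, were also called without that tumor. In that fit, 9.67% of all genes were called for R+S against control and 10.1% for R+S against sunitinib.

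Beta cell markers gave 0 calls among 15 in each comparison, beside 4.48%, 4.16% and 7.21% of all genes. *Nkx2-2* had the smallest p in the comparisons of R+S-treated tumors with control (edgeR adjusted p = 0.122) and with sunitinib-treated tumors (0.0502). Without tumor 6, *Nkx2-2* rose against control (0.44, adjusted p = 0.0395) and *Ucn3* fell against sunitinib (-0.61, adjusted p = 0.0435), beside 9.67% and 10.1% of all genes called. Without the 3 hormones, the beta cell markers summed to 4864 to 6359 CPM in control tumors, 5136 to 5397 in sunitinib-treated tumors 5, 8 and 12, 507 in tumor 6 and 3313 to 6881 in R+S-treated tumors. The lowest R+S-treated tumor in this sum was tumor 5, which also had the lowest *Gcg* and the highest *Ppy* of the series and a level of *Ins1* (7729 CPM) below that of the other R+S-treated tumors. Of the remaining marker lists, 30 of 31 acinar markers rose and 5 of 5 erythroid markers fell in sunitinib-treated against control tumors, with 28 and 5 in R+S-treated against control tumors, and 3 acinar markers fell in R+S-treated against sunitinib-treated tumors. Over the 3 comparisons, 4, 1 and 0 of 13 duct markers rose, 1, 0 and 1 of 12 immune markers fell, and of 10 stromal markers 2 fell, 1 fell and 1 rose, beside 4.48%, 4.16% and 7.21% of all genes called.

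Pearson correlations of log2 CPM over the 12 tumors, which share groups and acinar content, describe which genes varied most like each hormone among those with an average log2 CPM of at least 3. *Ins1*, *Ins2* and *Iapp* were led by *Mtmr7* (r = 0.98), *Mkrn1* (0.98) and *Spint1* (0.99), followed by *Epcam* (0.97) and *Tpd52* (0.96) for *Ins1*, *Gmpr* (0.98) and *Pex26* (0.97) for *Ins2*, and *Styk1* (0.99) and *Fam187b* (0.99) for *Iapp*. Without tumor 6 the leading 3 had 0.93, 0.90 and 0.78, and the genes that followed had 0.64 to 0.84. *Gcg* varied most like *Uchl1* (0.91), *Erp29* (0.91) and *Plk3* (0.90), with 0.92, 0.91 and 0.94 without tumor 6. *Ppy* varied most like *Slc16a10* (0.95), *Mavs* (0.94) and *Ttll7* (0.92), *Pyy* like *Cnnm4* (0.84), *Nadk2* (0.82) and *Ldlrad3* (0.80), and *Sst* like *Gpld1* (0.73), *Ndn* (0.69) and *Irf2bpl* (0.68). Among the hormones themselves, *Ins2* and *Iapp* had r = 0.97 (0.74 without tumor 6), *Ins1* and *Ins2* 0.92 (0.48), *Ppy* and *Pyy* 0.71 (0.72), *Sst* and *Pyy* 0.72 (0.72) and *Gcg* and *Ppy* -0.71 (-0.71). The correlations among the insulin genes and *Iapp* were thus lower without tumor 6, and those given for the less abundant hormones were similar with and without it.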

How the data were processed

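Tumor RNA was sequenced from stranded mRNA libraries, and the authors deposited whole-number read counts per gene, 1 table per tumor. The submitters' processing notes name cutadapt 1.2.1, TopHat2 2.0.9, HTSeq 0.5.4p3 and GRCm38. The strand setting of the counting and the annotation are not given in the sources used here, and the 5 summary lines of each table, among them 21203479 to 48418780 alignments that were not unique, were left out. Positions and exon lengths are from GENCODE M21.

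From the 12 deposited count tables, edgeR 4.0.16 (R 4.3.3) tested 16645 genes in 1 fit of 3 groups, with TMM normalization, filterByExpr (minimum count 10, minimum total 15), robust quasi-likelihood F-tests and Benjamini-Hochberg adjustment over all genes (threshold 0.05). SE is the absolute log2 fold change divided by the root of F. Normalized CPM uses TMM library sizes, and log2 CPM a prior count of 2. Two-sided exact permutation tests used all 70 arrangements of 4 against 4 tumors, and exact Poisson intervals used scipy 1.17.1. Alternatives were DESeq2 1.42.0, other scaling and filters, fits of 8 tumors, treated tumors with 1 prefix summed, a minimum log2 fold change of 1, and leaving out each tumor. Control tumors were kept apart where prefixes were summed, so a shared origin of the control tumors was not addressed. On counts simulated for sunitinib against control, with 16645 genes run, 42 of 100 genes changed by 1 on the log2 scale and 59 of 100 changed by 2 were recovered, and 3 unchanged genes were called.

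The hormones, gene lists and tests were chosen with earlier results of these data known. Named genes are all 8 hormones, in each list and comparison up to 4 genes with the smallest adjusted p under 0.05 or else the 1 with the smallest p, defining cell type markers where they stand beside a result, and for each hormone tested the 3 genes with the highest correlation. *Sct*, *Gal*, *Calcr* and other genes given for sunitinib-treated tumor 6 were named after their values were seen. Counts of replicates differed by more than sampling noise in every pair, so no library was merged. Intervals on counts cover counting error only. Values of 2 marker genes are not reported here.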

Additional observations from a re-analysis of the deposited data

Results flagged for a closer look

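In groups of 4 tumors, the lowest or highest tumor was compared with the rest by its gap over the whole range (Dixon's test at its 95% critical value), which chance exceeds in about 1 of 20 groups. Of 30 groups examined, 3 held such a tumor. *Ins1* in sunitinib-treated tumor 6 was at 8.40 log2 CPM, with the other 3 at 13.22 to 14.10, and *Iapp* in the same tumor was at 8.93, with the others at 12.93 to 13.55. *Ppy* in sunitinib-treated tumor 12 was at -1.69 log2 CPM, from 8 reads, with the others at 1.65 to 1.90.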

How the results depend on the processing

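No paired analysis was possible because the labels give no link between tumors of different groups. Of the alternative values of the log2 fold changes of hormones, 386 kept their direction and side of the threshold, 6 passed it and 19 changed sign. For sunitinib against control, leaving out each tumor gave -0.27 to 0.59 for *Ins1* (below 0 without control tumor 1 or sunitinib-treated tumor 12), -1.33 to 0.0015 for *Ins2* and -0.68 to 0.0216 for *Iapp* (above 0 without sunitinib-treated tumor 6), -0.16 to 0.65 for *Gcg* (below 0 without tumor 12), and -1.57 to 0.48 for *Sst* and -1.03 to 0.0732 for *Pyy* (above 0 without control tumor 1). With prefixes summed *Ins2* was at 0.19. For R+S against control the ranges were -0.1032 to 0.0961 for *Iapp* (above 0 without control tumor 1 or 2 or R+S-treated tumor 7, and 0.0167 with prefixes summed), -1.96 to 0.60 for *Sst* and -0.78 to 0.36 for *Pyy* (above 0 without control tumor 1). For R+S against sunitinib they were -0.0279 to 0.67 for *Iapp* (below 0 without tumor 6), -0.81 to 0.49 for *Sst* (below 0 without sunitinib-treated tumor 12 or R+S-treated tumor 10) and -0.13 to 0.66 for *Pyy* (below 0 without sunitinib-treated tumor 12 or R+S-treated tumor 5). The difference in mean log2 CPM of *Iapp* between R+S-treated and control tumors was 0.0042, and -0.0358 with library size and -0.0208 with upper quartile scaling.

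The count of hormones called was 0 in each comparison. DESeq2 called 1 for R+S against control and 2 for R+S against sunitinib, summing prefixes called 1 for R+S against sunitinib, and leaving out a tumor called 0 to 1 there, with 1 without sunitinib-treated tumor 5 or 6. Over all genes, DESeq2 called 1477, 1688 and 3045 against 745, 693 and 1200 by edgeR, and edgeR called 2861 for R+S against sunitinib without sunitinib-treated tumor 5 and 1627 for R+S against control without tumor 6. Without sunitinib-treated tumor 6, a choice made after seeing the data, the counts for sunitinib against control became 0 for processing genes (from 1), 2 for receptors (from 1) and 0 for other peptides (from 1). For R+S against control they became 3 for transcription factors, 1 for processing genes, 3 for receptors and 2 for other peptides (each from 0), and for R+S against sunitinib 2 for processing genes (from 1).

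The log2 ratio of *Ins1* to *Ins2* between R+S-treated and sunitinib-treated tumors was -0.11, 0.0803 with prefixes summed and -0.30 to 0.12 leaving out each tumor, with positive values without R+S-treated tumor 5 (0.0931) or sunitinib-treated tumor 5 (0.12). The log2 *Iapp* to *Ins2* ratio was 0.31 for sunitinib against control and -0.53 for R+S against sunitinib. With prefixes summed it was 0.0026 and -0.24, and leaving out each tumor it ranged from 0.15 to 0.62 and from -0.84 to -0.37, with 0.62 and -0.84 without sunitinib-treated tumor 12. The cause of these changes was not tested. The scalings tried moved the median log2 fold change of all genes by at most 0.0406. Counts of 1 to 18 reads limit *Ghrl* in every tumor and *Sst*, *Ppy* and *Pyy* in single tumors. Low counts also limit *Sstr2* in control tumors and *Gast* and *Arg1* in R+S-treated tumors.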

Other observations

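Receptor and peptide transcripts not described above also differed between single tumors. In sunitinib-treated tumor 6, *Rbp4*, a retinol carrier found in delta cells, was at 669 CPM against 12.8 to 60.7 in the other 11 tumors, *Hnf4a* at 73.8 against 18.3 to 45.6, *Gipr*, the receptor of an incretin hormone, at 124 against 24.2 to 74.8, and *Foxa1* at 5.28 against at most 0.0990. *Insm1*, a regulator of endocrine granule genes, was at 31.1 CPM against 255 to 489.9, and *Mlxipl*, the carbohydrate response factor, at 141 against 1326 to 2512. Of the 24 transcription factors of hormone genes tested, 12 were lowest and 5 highest in this tumor, of 23 processing genes 10 and 5, of 13 receptors 4 and 6, and of 13 other peptides 2 and 5. Over all genes tested, 22.5% were lowest and 22.6% highest in it. These genes were named after their values were seen, and the values come from 1 tumor with no replicate.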
